A study of Homo sapiens with 22 samples.

Results

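Asymmetric dimethylation of arginine 2 of histone H3 (H3R2me2a) was mapped by chromatin immunoprecipitation and sequencing, and the regions described here are the 1634 on chromosome 1 out of 8819 listed over all chromosomes (18.5%). They were taken as every chromosome 1 entry of a promoter list and an enhancer list, and split into a short arm (start below 125000000, 747 regions) and a long arm (the rest, 887 regions). Members were thus chosen by the authors' peak calls, which rest on tags, and by position alone. All region coordinates are on hg19.

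The study used 5 antibodies, control IgG included, in 22 samples of NT2/D1 cells. This human line comes from an embryonal carcinoma, resembles pluripotent cells, and leaves that state under all-trans retinoic acid (ATRA). CRISPR controls and PRMT6-deleted cells were grown with or without 1 µM ATRA for 3 days. Region lists from 2 samples were used, both H3R2me2a libraries of CRISPR control cells that still carry PRMT6, one with ATRA and one without. Each condition was 1 library, so every value below has a counting interval at most and no replicate error, and no test was possible. Cluster III and the promoter and enhancer lists were deposited under the library with ATRA, and clusters II and I under the library without ATRA. Every region belonged to 1 cluster and 1 class. The lists hold no expression values, so the labelled cell line was not checked against marker genes, and the PRMT6-deleted cells were not analysed here.

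H3R2me2a is placed mainly by the arginine methyltransferase PRMT6. The mark is known to hinder trimethylation of the neighbouring lysine 4 of histone H3, and it has been described at both promoters and enhancers. In embryonal carcinoma cells retinoic acid acts through nuclear receptors that bind DNA and switch developmental genes. A tag count per region is an average over the culture, so fewer cells with the mark and less mark per cell cannot be told apart.

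The promoters of the chromosome 1 genes around which the results turn are shown first. PRMT6 itself lies on the short arm, and CRABP2, a binding protein that delivers retinoic acid to its receptors, on the long arm. NDC1, a nuclear pore protein gene, and PRCC, a gene fused in papillary renal cell carcinoma, held the promoter-class regions with the highest tagcount on the short and the long arm among genes with a single start in the RefSeq table. KIAA0319L, which codes for a cell surface receptor used by adeno-associated virus, and NUCKS1, which codes for a nuclear DNA-binding protein, held the cluster III promoter-class regions with most MACS tags by the same rule. Sequences are from RefSeq on GRCh38.p14, cover 300 bases each from 250 before the start, run 5′ to 3′ on the gene's strand, and have their CpG dinucleotides in capitals. The windows are chr1:107056424-107056723 (plus strand) for PRMT6, chr1:156705735-156706034 (minus) for CRABP2, chr1:53838247-53838546 (minus) for NDC1, chr1:35557354-35557653 (minus) for KIAA0319L, chr1:156767285-156767584 (plus) for PRCC and chr1:205750133-205750432 (minus) for NUCKS1.
PRMT6: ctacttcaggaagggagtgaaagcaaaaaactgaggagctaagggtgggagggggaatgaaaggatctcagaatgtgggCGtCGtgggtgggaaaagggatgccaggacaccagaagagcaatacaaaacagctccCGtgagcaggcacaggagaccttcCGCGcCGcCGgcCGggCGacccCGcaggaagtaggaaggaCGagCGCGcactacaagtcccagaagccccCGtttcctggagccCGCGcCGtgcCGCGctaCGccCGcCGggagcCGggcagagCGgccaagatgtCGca
CRABP2: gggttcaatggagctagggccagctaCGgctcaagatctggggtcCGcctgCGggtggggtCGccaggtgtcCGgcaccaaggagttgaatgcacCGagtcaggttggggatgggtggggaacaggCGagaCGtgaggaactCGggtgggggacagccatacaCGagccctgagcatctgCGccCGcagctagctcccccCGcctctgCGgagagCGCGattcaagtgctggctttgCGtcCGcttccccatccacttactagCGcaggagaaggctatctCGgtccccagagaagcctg
NDC1: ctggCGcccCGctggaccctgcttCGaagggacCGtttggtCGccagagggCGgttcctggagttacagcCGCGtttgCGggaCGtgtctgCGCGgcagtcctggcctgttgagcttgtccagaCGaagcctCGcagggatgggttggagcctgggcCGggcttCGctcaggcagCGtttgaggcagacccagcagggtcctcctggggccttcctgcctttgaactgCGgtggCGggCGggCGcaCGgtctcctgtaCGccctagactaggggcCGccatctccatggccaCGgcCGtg
KIAA0319L: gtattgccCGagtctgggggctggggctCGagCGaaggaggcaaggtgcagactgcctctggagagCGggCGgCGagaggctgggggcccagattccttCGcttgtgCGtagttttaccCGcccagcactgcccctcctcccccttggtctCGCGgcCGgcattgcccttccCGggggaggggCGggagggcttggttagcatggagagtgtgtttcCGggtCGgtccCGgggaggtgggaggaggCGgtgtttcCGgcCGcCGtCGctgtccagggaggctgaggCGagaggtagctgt
PRCC: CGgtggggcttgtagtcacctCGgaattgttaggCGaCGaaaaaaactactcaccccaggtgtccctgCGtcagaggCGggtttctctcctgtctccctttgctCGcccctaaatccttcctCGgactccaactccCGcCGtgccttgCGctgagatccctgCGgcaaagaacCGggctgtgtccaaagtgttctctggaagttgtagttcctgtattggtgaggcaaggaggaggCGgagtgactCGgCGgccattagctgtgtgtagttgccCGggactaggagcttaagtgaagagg
NUCKS1: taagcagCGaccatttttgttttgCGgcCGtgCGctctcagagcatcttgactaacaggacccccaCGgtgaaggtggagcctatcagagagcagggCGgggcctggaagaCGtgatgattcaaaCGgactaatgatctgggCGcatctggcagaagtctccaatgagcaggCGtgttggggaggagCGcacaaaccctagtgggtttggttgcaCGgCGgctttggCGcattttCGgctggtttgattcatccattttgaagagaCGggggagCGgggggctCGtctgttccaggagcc

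The 6 promoters hold 17 to 26 CpG dinucleotides each, with 25 at PRMT6, 20 at CRABP2 and 26 at NDC1. Their GC content lay between 57% at PRCC and NUCKS1 and 68.3% at KIAA0319L. The H3R2me2a regions named for these genes lay 13 to 205 bp from a start by the authors' distance column, taking for CRABP2 and PRMT6 the region nearest to the start.

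Chromosome 1 held more listed regions than any other of the 23 chromosomes with at least 20 regions, and came 3rd in regions per Mb (6.56), after chromosomes 12 (7.70) and 19 (7.30). Across chromosome 1 the median region was 540 bp wide, with 34 tags in the authors' tagcount column. Which library tagcount comes from is not stated in the sources used here. At the 43 chromosome 1 regions of cluster I, tagcount exceeded the MACS tags by 0 to 7 tags (median 3), which points to the library without ATRA. MACS tags were deposited for clusters III and I only, and sequencing depth is unknown, so a ratio of MACS tags to tagcount in cluster III is unscaled and is compared only between sets of regions.

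The short arm carried fewer regions per Mb than the long arm. Its 747 regions spanned 121.1 Mb from first to last, which gives 6.17 regions per Mb (95% Poisson interval 5.73 to 6.63), and the 887 regions of the long arm spanned 106.6 Mb, which gives 8.32 (7.78 to 8.89). The ratio, short over long, was 0.741 (0.672 to 0.818), with an interval that treats regions as independent although many lie in runs. Bases covered were 451663 on the short arm and 552287 on the long arm. Names of nearest genes numbered 538 on the short arm and 613 on the long arm, and median widths were 541 and 538 bp in the same order.

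The regions on either side of the arm boundary lay 21.5 Mb apart. Just inside the short arm stood HIST2H2BA, a histone H2B pseudogene (65 tagcount, 101 MACS tags), and AL592494.5 (129 tagcount, 196 MACS tags). Just inside the long arm stood RP11-417J8.3 (35 tagcount, 61 MACS tags) and RP11-423O2.7 (52 tagcount, 79 MACS tags). All 4 were promoter-class regions of cluster III.

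Along the chromosome the regions were concentrated in 3 blocks. In windows of 5 Mb the counts ran from 4 to 117 in the 47 windows that held a region, with a median of 25, and 3 windows between 125 and 140 Mb held none. The 10 densest windows, 4 on the short arm and 6 on the long arm, held 793 of 1634 regions (48.5%, 46.1 to 51%). The fullest, 25 to 30 Mb on the short arm, had 117 regions, led by AHDC1 with 9 regions, LIN28A with 6 and MAN1C1 with 6. It was followed by 155 to 160 Mb on the long arm (100 regions, led by LMNA and RP11-284F21.7 with 6 each), by 150 to 155 Mb (85 regions, led by KCNN3 and ZBTB7B with 4 each) and by 200 to 205 Mb (85 regions, led by ATP2B4 with 6). The window from 145 to 150 Mb came next with 82, led by BCL9 with 5.

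**Figure D1:**
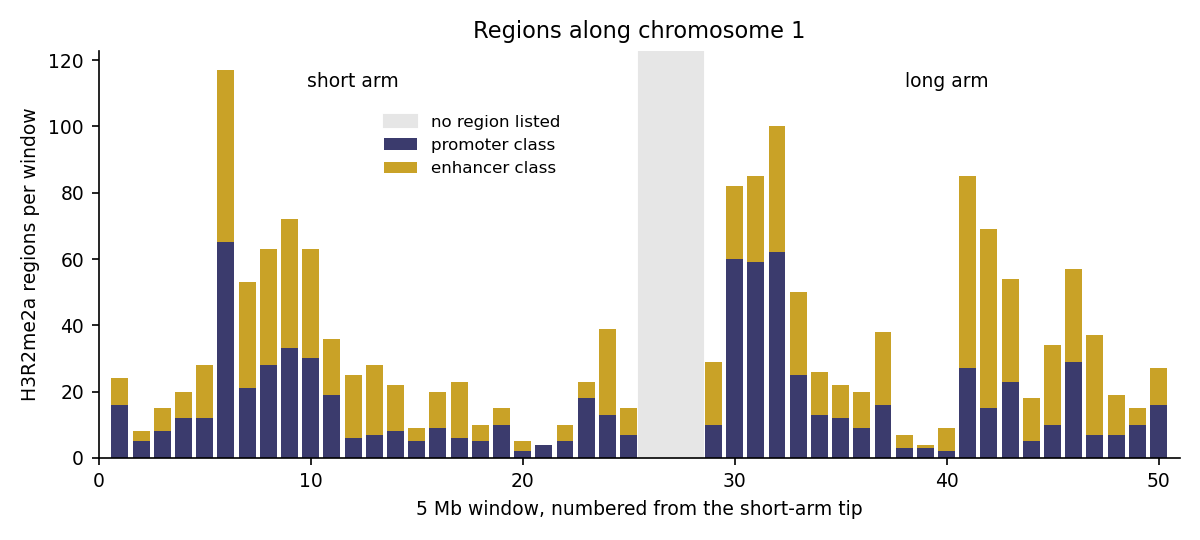
Number of H3R2me2a regions (y axis) in each 5 Mb window of chromosome 1 (x axis, numbered from the short-arm tip), split into promoter class (dark, bottom) and enhancer class (light, top). The grey band marks the 3 windows with no region. Counts peak at 117 in window 6, at 100 in window 32 and at 85 in window 41, and the promoter class makes up more of the peak just after the band than of the last peak.

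Counts by class differed between the blocks. Promoter-class regions were 65 of 117 in the window from 25 to 30 Mb, 62 of 100 from 155 to 160 Mb and 27 of 85 from 200 to 205 Mb. To read the blocks against gene content, 7 stretches were drawn after the window counts were seen, and the 2062 protein-coding genes of chromosome 1 in RefSeq were placed in them by gene order. Over all of chromosome 1, 733 of these genes (35.5%) were named as nearest to a region, with 356 of 1079 on the short arm (33%, 30.2 to 35.9%) and 377 of 973 on the long arm (38.7%, 35.7 to 41.9%). Another 10 genes could not be placed in a stretch, and none of them was named.

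On the short arm, the first 25 Mb held 3.81 regions per Mb (3.08 to 4.66), and 52 of its 342 protein-coding genes were named (15.2%, 11.6 to 19.5%). The stretch from 25 to 55 Mb held 13.6 regions per Mb (12.3 to 15.0), with 195 of 387 genes named (50.4%, 45.3 to 55.5%). Beyond 55 Mb the density was 3.75 regions per Mb, and 109 of 350 genes were named (31.1%, 26.3 to 36.3%). The first 25 Mb thus had the lowest share of genes named of these 3 stretches, with 342 genes beside 387 and 350. The intervals of the 3 gene shares did not overlap. The stretches were drawn after the window counts were seen, so this is a description, and the cause of the low density was not tested.

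On the long arm, the stretch up to 165 Mb held 15.7 regions per Mb (14.1 to 17.4), with 159 of 428 genes named (37.1%). The stretch from 165 to 200 Mb held 3.65 regions per Mb (3.04 to 4.35), yet a similar share of its genes was named (62 of 171, 36.3%). From 200 to 235 Mb the density was 10.2 (9.17 to 11.3) and 132 of 266 genes were named (49.6%, 43.5 to 55.8%), with 1.33 regions per gene, the most of the 7 stretches. Beyond 235 Mb it was 4.30, with 24 of 108 genes named (22.2%, 14.8 to 31.2%).

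**Figure D2:**
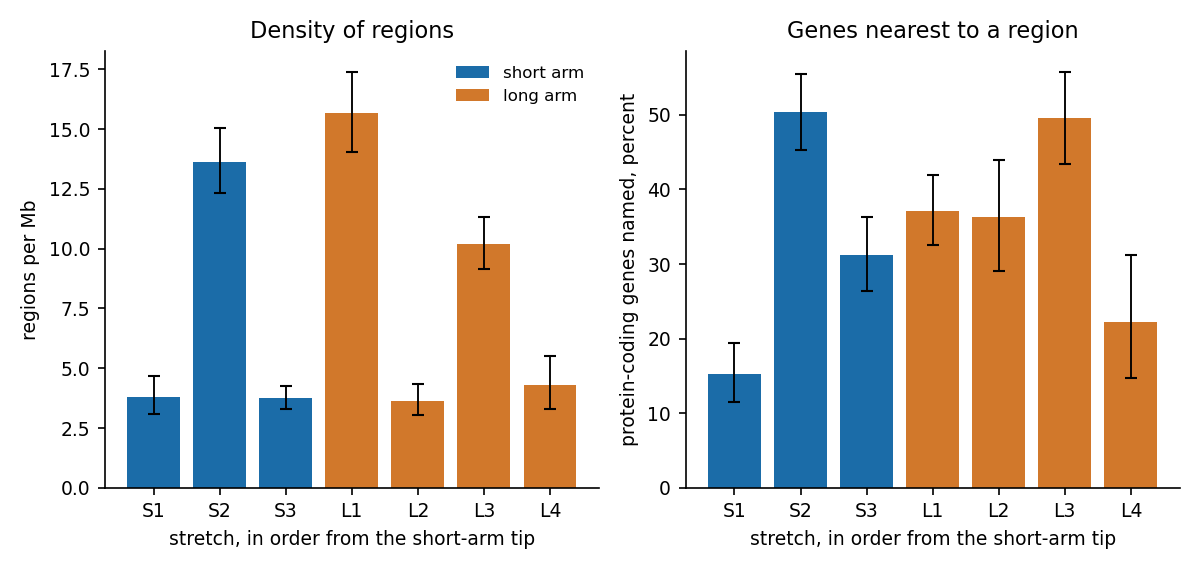
Regions per Mb with 95% Poisson intervals (left) and the percentage of RefSeq protein-coding genes named as nearest to a region with 95% exact binomial intervals (right), in 7 stretches ordered from the short-arm tip (S1 to S3 on the short arm, L1 to L4 on the long arm). S2 and L1 have the highest densities, 13.6 and 15.7 per Mb, while S2 and L3 have the highest gene shares, 50.4% and 49.6%.

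Class and cluster shares of the 2 arms lay close together, with overlapping intervals. Cluster III took 78.0% of short-arm regions (583 of 747, 74.9 to 81.0%), 75.6% of long-arm regions (671 of 887, 72.7 to 78.4%) and 73.3% of the 7185 regions on other chromosomes (72.2 to 74.3%). Cluster II took 19.8% on the short arm, 21.3% on the long arm and 24.5% elsewhere. Cluster I, the smallest, had 16 regions on the short arm (2.14%) and 27 on the long arm (3.04%). The promoter class took 47.4% on the short arm, 47.7% on the long arm and 48.1% elsewhere. Regions within 1 kb of a start, which need not be promoter class, were 49.0% on the short arm and 47.8% on the long arm.

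Among enhancer-class regions of chromosome 1, a smaller share lay far from a start than elsewhere, and a larger share lay near a promoter-class region. More than 50 kb from a start lay 7.70% on chromosome 1 as a whole (6.01 to 9.69%), with 7.63% on the short arm (30 of 393, 5.21 to 10.7%), 7.76% on the long arm (36 of 464, 5.49 to 10.6%) and 11.4% on other chromosomes (10.4 to 12.5%). Within 50 kb of a promoter-class region lay 33.8% on the short arm (29.2 to 38.8%), 33.2% on the long arm (28.9 to 37.7%) and 19.4% elsewhere (18.1 to 20.7%). Chromosome 1 also had more regions per Mb than all but 2 of the chromosomes compared, and the part of density in these shares was not tested.

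Classes and clusters were tied to each other on both arms. Of cluster III regions, 41.5% were promoter class on the short arm and 43.2% on the long arm, against 74.3% and 68.8% of cluster II regions in the same order of arms. Only 5 of 43 cluster I regions of chromosome 1 were promoter class, 2 on the short arm and 3 on the long arm. Per kb of region, tagcount had a median of 50 in cluster III (range 7.37 to 137), 136 in cluster II (74.1 to 780) and 102 in cluster I (78.8 to 143). The 90th percentile of cluster III and the lowest value of cluster II were 75.3 and 82.5 on the short arm, and 80.9 and 74.1 on the long arm. Whether this column was used to draw the clusters is unknown here. Each cluster II region carried a second, overlapping interval, which was the wider in 289 of 337 regions of chromosome 1, with medians of 808 bp for the second and 576 bp for the first.

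A smaller share of cluster III regions reached high ratios of MACS tags to tagcount on chromosome 1 than elsewhere, with intervals that did not overlap. At least 4 times as many MACS tags as tagcount stood at 68 of 583 regions on the short arm (11.7%, 9.17 to 14.6%) and at 55 of 671 on the long arm (8.20%, 6.23 to 10.5%), where the share over all cluster III regions of the series was 17.6%. On other chromosomes it was 19.4% (1022 of 5265, 18.4 to 20.5%). At this cut the gap showed in the enhancer class. There 18.8% of short-arm regions (14.8 to 23.3%), 13.4% of long-arm regions (10.1 to 17.2%) and 32.1% of regions elsewhere (30.5 to 33.8%) reached 4 times. At 8 times or more stood 10 short-arm regions (1.72%) and 6 long-arm regions (0.894%), where 4.53% of the whole series did. Promoter-class regions rarely reached 4 times anywhere, with 4 of 242 on the short arm, 4 of 290 on the long arm and 29 of 2176 (1.33%) on other chromosomes. A gap in that class could thus hardly show at 4 times. At 2 times or more stood 28.2% of promoter-class regions on chromosome 1 (24.4 to 32.2%) and 36.9% elsewhere (34.9 to 39%). The short arm alone had 32.2% (26.4 to 38.5%), an interval that overlaps the latter. Median ratios on chromosome 1 and elsewhere were 1.64 and 1.81 at promoters, and 2.19 and 2.79 at enhancers. With both classes together, median ratios were 1.96 on the short arm, 1.84 on the long arm and 2.12 elsewhere. In the same order, median MACS tags of cluster III were 52, 50 and 50, and median tagcounts 26, 28 and 24. In these raw counts the lower ratios came with higher tagcounts and similar MACS tags. Widths differed as well, with medians of 537, 538 and 508 bp in the same order. Median tagcounts per kb were 49.3, 50.8 and 46.3. Ranked by median ratio, chromosome 1 was 20th of 23 chromosomes, and 21st by the share at 4 times or more.

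**Figure D3:**
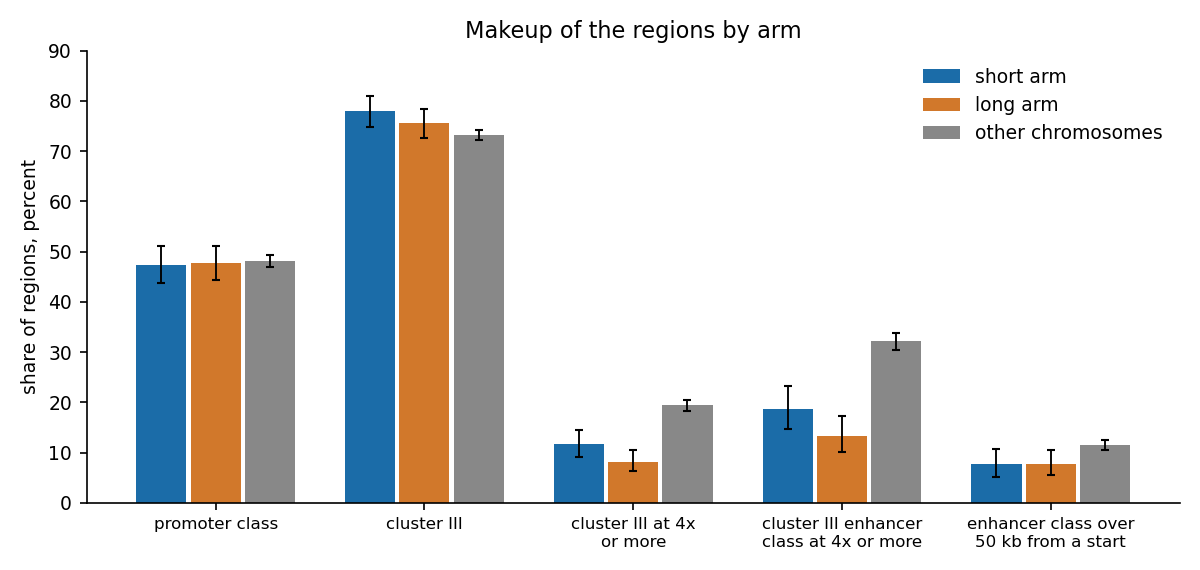
Share of regions in percent (y axis) that fall in each category (x axis) on the short arm, the long arm and all other chromosomes, with 95% exact binomial intervals. The first 2 categories and the last take all regions or all enhancer-class regions as the whole, the others take cluster III regions. The intervals of the arms overlap in every category, and both arms lie below the other chromosomes for cluster III regions at 4 times or more, 11.7% and 8.20% against 19.4%.

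**Figure D4:**
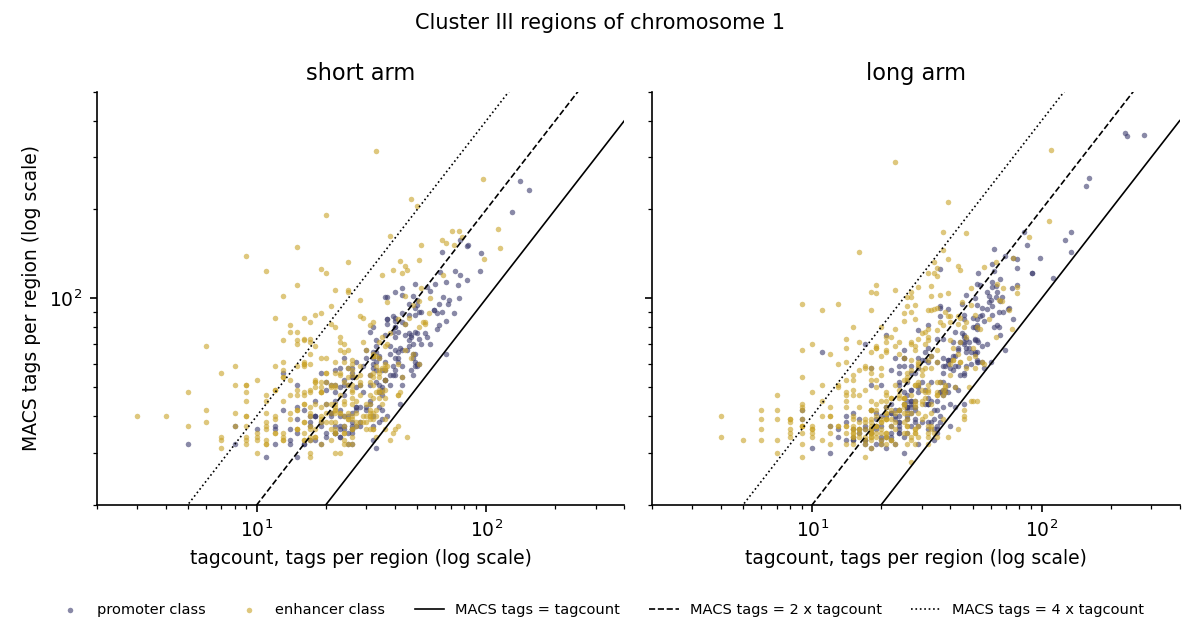
MACS tags (y axis, log scale) against tagcount (x axis, log scale) of each cluster III region of the short arm (left) and the long arm (right), promoter class dark and enhancer class light. Lines mark ratios of 1, 2 and 4. Enhancer-class points spread past the line of 4 on both arms, while all but 8 promoter-class points of the 532 lie below it.

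The ratio also varied along the chromosome. In the stretch of the long arm up to 165 Mb, cluster III had a median ratio of 1.59, and the 4 windows between 140 and 160 Mb had medians of 1.44, 1.51, 1.61 and 1.64. That stretch is rich in multi-copy families (47 of 346 regions named for one, 13.6%, by a list of names made after seeing the data), whose reads a counter may split between copies. With the regions of those names left out, 226 of its 249 cluster III regions remained, with a median ratio of 1.61. Copies under other names were kept, and the part of multi-copy sequence in the ratio was not tested. Within classes the same stretch had medians of 1.52 at promoters and 1.90 at enhancers, the lowest of the 7 stretches for both. Enhancer-class medians in the other 6 stretches lay between 2.05 and 2.80.

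At the other end, the window from 215 to 220 Mb had a median ratio of 4.64, and 9 of its 17 cluster III regions reached 4. Its 18 regions carried 12 gene names, among them RNU1-141P, a U1 pseudogene (5 regions), ESRRG, an orphan nuclear receptor gene (2 regions), and KCNK2, a potassium channel gene (2 regions). The 2 ESRRG regions differed, with 51 MACS tags and 11 tagcount at one and 36 MACS tags and 33 tagcount at the other. The median tagcount of this window was 12.5, and at such counts a few tags move the ratio.

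**Figure D5:**
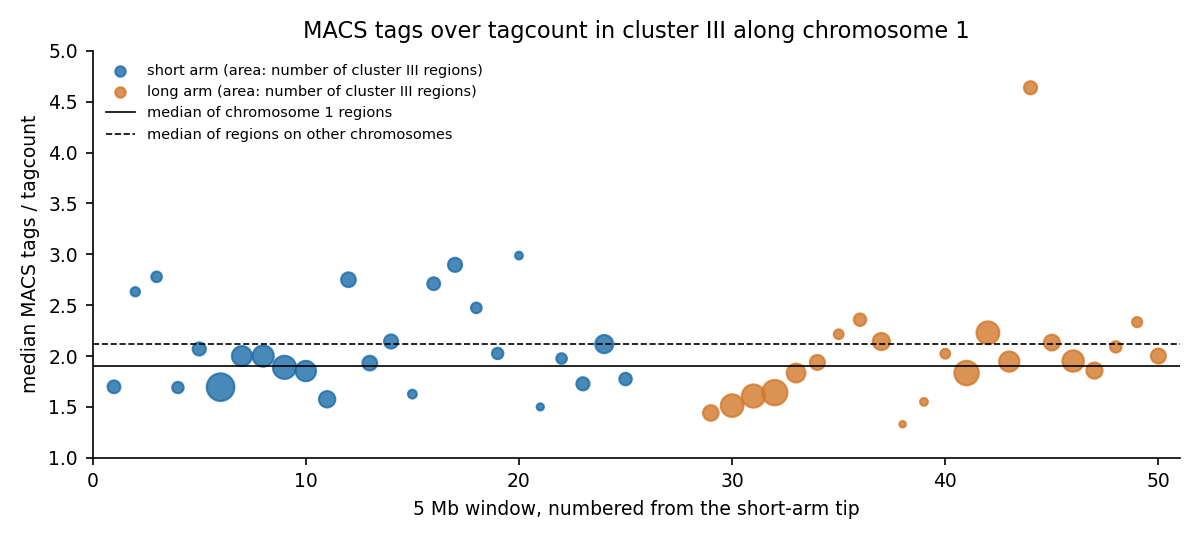
Median ratio of MACS tags to tagcount over the cluster III regions (y axis) of each 5 Mb window (x axis, numbered from the short-arm tip), with point area showing the number of regions. The solid line is the median of all chromosome 1 regions, 1.90, and the dashed line that of other chromosomes, 2.12. Windows 29 to 32 lie between 1.44 and 1.64, and window 44 stands alone at 4.64.

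The highest single ratios lay at distal enhancer-class regions. On the short arm an intergenic region named for RP11-415K20.1, at a distance of 13825 bp (22662865 to 22664085) had 139 MACS tags and 9 tagcount, a ratio of 15.4, and a neighbouring region had 102 MACS tags and 13 tagcount. Another region of that name (22660017 to 22660387) had 40 MACS tags and 3 tagcount, a ratio of 13.3. At such low tagcounts a few tags move the ratio. On the long arm an exonic region at 224872092 to 224873285 had 289 MACS tags and 23 tagcount, a ratio of 12.6. An intronic region of SRGAP2, a gene for a regulator of neuronal migration that has near-identical copies, had 96 MACS tags and 9 tagcount. WNT3A, which codes for a secreted WNT ligand, had a region 34400 bp from a start with 144 MACS tags and 16 tagcount, a ratio of 9, and a second one beside it with 47 MACS tags and 15 tagcount.

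By MACS tags alone, the strongest cluster III region of the short arm lay in an intron of VTCN1, an immune checkpoint ligand gene (117723901 to 117725043, 315 MACS tags, 33 tagcount). AHDC1, an AT-hook protein gene, followed with 253 MACS tags and 97 tagcount in an intron, KIAA0319L with 249 and 140 at its start, the receptor gene NOTCH2 with 232 and 153 at its start, and RP11-39H13.1 with 217 and 47. On the long arm the strongest were a pair at starts of PDE4DIP, a centrosome and Golgi protein gene, with 363 MACS tags and 231 tagcount at one and 358 and 279 at the other. NOTCH2NL had 354 MACS tags and 235 tagcount, RP11-66D17.3 had 317 and 110, and the exonic region given above had 289 and 23. NOTCH2, NOTCH2NL and PDE4DIP have near-identical copies on chromosome 1, so their tags are uncertain.

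Cluster I regions were led on the short arm by GRHL3, an epithelial transcription factor gene (73 MACS tags), RP1-144F13.4 (71) and CDKN2C, a cyclin-dependent kinase inhibitor gene (52). KIAA0040 (139), RNA5SP75 (103) and CR1L (75) led on the long arm. GRHL3 also had a second cluster I region (42 MACS tags), a cluster III region with tagcount 16 and a cluster II region with tagcount 84. Its strongest cluster I region stood 802 bp from a start and that of KIAA0040 62253 bp from one.

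Runs of regions less than 10 kb apart held 252 of 747 short-arm regions (33.7%, 30.3 to 37.3%) in 100 runs and 371 of 887 long-arm regions (41.8%, 38.6 to 45.2%) in 145 runs. The longest, with 9 regions over 17.7 kb (156629791 to 156647526), covered NES, which codes for the neural progenitor filament nestin, and the neighbouring RP11-284F21.7. At the start of NES one region had 96 MACS tags and 45 tagcount, and another in an intron had 70 and 17. On the short arm the longest runs had 6 regions each, at LIN28A, at RNF220 and at RP11-543D5.1. The widest gap between regions within an arm was 6.17 Mb on the short arm, after SASS6, and 2.85 Mb on the long arm, after LINC01036.

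Several genes gathered many regions. RNF220, which codes for a ubiquitin ligase, had 9 regions on the short arm, all cluster III, with 36 to 107 MACS tags and ratios of 1.45 to 4.28. AHDC1 also had 9, of which 8 were cluster III. Genes with 6 regions included LPHN2, a latrophilin adhesion receptor gene, and MAN1C1, a mannosidase gene, on the short arm. On the long arm they included LMNA, which codes for nuclear lamins A and C, the axonal NAD synthesis gene NMNAT2 and the semaphorin receptor gene PLXNA2. Most gene names had a single region, 419 of 538 on the short arm (77.9%) and 450 of 613 on the long arm (73.4%).

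Some small nuclear RNA genes stood among the regions with the highest tagcounts of both arms, below NDC1 on the short arm and PRCC on the long arm. These RNAs form the cores of the spliceosome, and U1 pairs with the start of introns. Tagcounts at the short-arm U1 genes were 373 at RNU1-1, 478 at RNU1-2, 363 at RNU1-3 and 481 at RNU1-4. The long-arm U1 variants had 694 at RNVU1-18, 395 at RNVU1-14 and 363 at RNVU1-7. U11, which serves the minor spliceosome, had 466 at RNU11, and the U5 genes had 289 at RNU5F-1, 229 at RNU5E-1 and 205 at RNU5D-1, all on the short arm. These regions were named for their high tagcounts and were all in cluster II, the cluster with the higher tagcounts. Over all names of small nuclear and nucleolar RNAs, 40 of 72 regions were in cluster III, 29 in cluster II and 3 in cluster I. Of all chromosome 1 regions, 76.7%, 20.6% and 2.63% were in these clusters. The 72 regions had a median tagcount of 40.5, beside 34 over all regions of chromosome 1. Some of the 72 lay far from the RNA gene, such as the 5 named for RNU1-141P, at 26894 to 49861 bp. The small nuclear RNA genes stand among near-identical copies, so the split of tags between them is uncertain.

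Other starts of similar or greater height were, on the short arm, NDC1 (601 tagcount), PAFAH2, a phospholipase gene (592), and CCDC163P (489). The long arm had PRCC (867), MRPL24, a mitochondrial ribosomal protein gene (553), and the long non-coding RP11-122M14.1 (494). The highest tagcount of the enhancer class was 596, upstream of the vesicle SNARE gene SEC22B on the long arm. PRCC, MRPL24 and HDGF, a growth factor gene (158), stand within the window from 155 to 160 Mb, as do CRABP2 and NES.

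Histone genes were marked mostly in cluster II. Of the 21 histone genes listed for chromosome 1, 12 were named (57.1%, where 35.5% of all protein-coding genes were), 2 on the short arm and 10 on the long arm. The 2 on the short arm were HIST2H3DP1 and the pseudogene HIST2H2BA. Their 13 regions over both arms were all promoter class, as were 47.6% of all regions of chromosome 1. Cluster II took 10 of the 13 (20.6% of all chromosome 1 regions were in it), and their median tagcount was 119, against 34 over all regions of chromosome 1. HIST2H2AC had 539 tagcount over 3256 bp, the widest region of the chromosome, HIST2H4B had 492, HIST2H2AA3 had 444 and HIST2H4A had 404. Several of these genes are duplicates of each other, so their tags are uncertain.

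PRMT6, which places the mark, had a promoter-class region at its start (107599041 to 107599500) with 51 MACS tags and 24 tagcount, and an enhancer-class region just downstream (107599619 to 107600119) with 40 MACS tags and 9 tagcount. Both were in cluster III. Genes of chromatin modifiers were named in 18 of 25 cases (10 on the short arm, 8 on the long arm), where 35.5% of all protein-coding genes of the chromosome were. Their 24 regions were 18 of cluster III and 6 of cluster II, close to the 76.7% of cluster III over all chromosome 1 regions. RBBP5, a shared subunit of the complexes that methylate lysine 4 of histone H3, had the highest tagcount among them (225), followed by PHF13 (157), a reader of that methylation. ARID1A, a chromatin remodelling subunit, had 3 regions, with tagcounts of 83, 23 and 77, and HDAC1, a histone deacetylase, had 1 with 57 MACS tags and 35 tagcount.

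LIN28A, which codes for an RNA-binding protein of pluripotent cells, had regions of all 3 clusters within 15.9 kb. In order along the chromosome their tagcounts were 15 (cluster III), 45 and 111 (cluster II), 42 (cluster I), 71 and 38 (cluster II). The highest stood 318 bp from a start, and the cluster III region stood farthest upstream. LEFTY1 and LEFTY2, which code for NODAL antagonists, had 1 enhancer-class region each, with tagcount 51 in cluster II and 43 in cluster III (87 MACS tags).

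Of 6 retinoid pathway genes, CRABP2 was the 1 that was named (16.7%, where 35.5% of all protein-coding genes were). With 6 genes this share is too coarse to set against that of all genes. Its 3 promoter-class regions of cluster III ran side by side from 156674650 to 156677885, with 105 MACS tags and 64 tagcount at 13 bp from a start, 151 and 86 at 550 bp, and 40 and 36 at 2129 bp. Ratios were 1.64, 1.76 and 1.11, where promoter-class regions of cluster III had a median of 1.64 over chromosome 1 and 1.60 on the long arm.

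Developmental transcription factors were named mostly by enhancer-class regions. Of 41, 21 were named (51.2%, beside 35.5% of all protein-coding genes), with 36 of 44 regions in the enhancer class, where 52.4% of all chromosome 1 regions were, and 34 in cluster III, a share near the 76.7% of the chromosome. They included GRHL3 with 4 regions, MEF2D, a muscle and neuronal factor, with 4, HIVEP3, a zinc finger factor, with 3 and SOX13 with 3. PAX7, a neural crest and muscle factor, had 1 region with tagcount 36, and POU3F1, a neural POU factor, had 1 with 52 MACS tags and 19 tagcount. In the WNT, Notch and Hedgehog list 7 of 19 genes were named (36.8%, near the 35.5% of all protein-coding genes), with 24 of 26 regions in cluster III, where 76.7% of all chromosome 1 regions were. Most of the 26 came from few genes, RNF220 with 9, BCL9 and NOTCH2 with 5 each and NOTCH2NL with 3, all in cluster III. Regions of 1 gene are not independent, so the cluster count says little about the list. BCL9, a coactivator of beta-catenin, had 5 regions, of which the highest had 143 MACS tags and 134 tagcount. TGF-beta genes were named in 3 of 7 cases (42.9%, beside the same 35.5%).

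Genes for mRNA processing were marked at their starts. Of 24, 19 were named (79.2%, where 35.5% of all protein-coding genes were), 12 on the short arm and 7 on the long arm. Of their 24 regions 23 were promoter class, as were 47.6% of all regions of chromosome 1. ZC3H11A, an mRNA export factor, had tagcount 219, THRAP3, a splicing and mediator-associated factor, had 195, SF3A3, a U2 particle subunit, had 125 and SNRPE, a core snRNP protein, had 103, all in cluster II. DHX9, an RNA helicase, had 139 MACS tags and 69 tagcount in cluster III. Ribosomal protein genes were named in 3 of 5 cases (60%) and cell cycle genes in 11 of 25 (44%), beside the same 35.5%.

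Some gene families were named less often than the 35.5% of all protein-coding genes of chromosome 1. They were olfactory receptors, with 1 of 95 genes named (1.05%, OR2B11), genes of epidermal differentiation and S100 proteins, with 5 of 60 (8.33%), and numbered zinc finger genes, with 10 of 54 (18.5%). The epidermal genes lie together in the dense stretch of the long arm up to 165 Mb. These lists are described by counts alone, and no difference between them and other genes was tested.

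Promoters with a region at their start were richer in CpG than other promoters of chromosome 1. Of 577 genes with a promoter-class region at their start, 343 had a single RefSeq promoter. Among protein-coding genes, the 335 with a region had a median of 25 CpG dinucleotides per 300 bases (quartiles 19 and 31), and the 886 not named for any region had 15 (3 and 29). GC content had medians of 63.0% with a region and 60.0% without. All 11786 protein-coding promoters in the table, over all chromosomes, lay nearer to those with a region. Their medians were 22 CpG (8 and 32) and 62.7% GC. By arm, with non-coding genes included, medians were 27 CpG (quartiles 21 and 32) and 64.7% GC on the short arm. On the long arm they were 23.5 CpG (17 and 30) and 62.3% GC. Cluster III promoters had a median GC content of 65.0% and cluster II promoters 60.3%, with 26 and 22 CpG in the same order.

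Short motifs were searched on both strands of these 300-base windows. The GC box GGGCGG stood in 67.8% of protein-coding promoters with a region (62.5 to 72.7%) and 48.9% of those without (45.5 to 52.2%), and in 58.7% of all 11786 protein-coding promoters in the table. The ETS motif CCGGAAG stood in 21.2% with a region, 9.71% without and 15.1% of all protein-coding promoters, and the YY1 motif GCCATNTTG in 9.85% with a region, 2.71% without and 495 of all 11786. TATAAA ran the other way, with 5.37% with a region, 14.8% without and 10.5% of all protein-coding promoters. CCAAT was in 38.8% with a region, 38.0% without and 37.2% of all protein-coding promoters. The half-site AGGTCA, which nuclear receptors such as the retinoic acid receptors bind in pairs, was in 8.96% with a region (6.12 to 12.5%), 14.9% without (12.6 to 17.4%) and 11.9% of all protein-coding promoters, a share within the interval of promoters with a region. With non-coding genes included, the 22114 promoters of the table held the GC box in 43.0%, ETS in 10.7%, YY1 in 3.12%, TATAAA in 12.7%, CCAAT in 36.2% and AGGTCA in 14.4%.

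Between clusters, the ETS motif stood in 16.5% of cluster III promoters (11.9 to 21.9%) and 29.2% of cluster II promoters (21.0 to 38.5%), and the GC box in 71.9% (65.6 to 77.6%) and 58.4% (48.8 to 67.6%) in the same order, with intervals that overlap. Of the promoters printed above, NDC1 holds 2 GC boxes, KIAA0319L 3 and NUCKS1 1, PRCC and NUCKS1 hold 1 CCAAT each, and PRMT6 and CRABP2 hold no match to the GC box, ETS, YY1, CCAAT or TATA motifs. Motifs overlap in base composition with CpG content, and the part of composition in these shares was not tested.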

How the data were processed

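ChIP-seq libraries of NT2/D1 cells were handled by the authors with bcl2fastq, Bowtie2, MACS 1.4 and deepTools on hg19, per the submitters' processing notes (roles not given). Tag counts are whole numbers, unscaled, that the authors deposited for each region as MACS tags (clusters I and III) and as tagcount (the class lists); column names are per the file headers. Sources used here do not give the criteria for clusters and classes, the peak-calling control or the depth. No input coverage was used, so counts were not scaled to DNA copy number.

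Lists were joined on chromosome, start and stop, with the first interval of cluster II. Per the file headers, the position column calls 1250 bp around a start its window and 5000 bp upstream. Distances are the authors'. Arms, 5 Mb windows by region midpoint and runs under 10 kb were counted in Python 3.11.15 (pandas 2.3.3, SciPy 1.17.1). Shares carry exact Clopper-Pearson intervals and densities exact Poisson intervals, at 95%, for counting error only. Their functions were tested on simulated data. With 1 library per condition no p-value was computed.

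Of 1149 gene names, 803 matched RefSeq by symbol and 80 by an older name. RefSeq gave names, gene order and promoters on GRCh38.p14, never coordinates for the regions. Genes were named by rank within arm (regions, tags, width, runs) and by list membership. An item that this rule picks is not reported here. Regions with the 5 highest ratios per arm were added later, and only some of them are given above. Members, lists and rules were chosen with earlier results of these data known. Alternatives covered arm lengths, class, distance, width, tag minimum, ratio, window size, run gap and chromosome 12.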

Additional observations from a re-analysis of the deposited data

How the results depend on the processing

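The lower density on the short arm kept its direction under all 8 alternatives tried, between 0.690 and 0.837, the higher value with arm lengths taken from the boundary. Leaving out the first 25 Mb gave 0.815 and leaving out multi-copy names 0.787, both chosen after seeing the data. Of 43 alternative values, 19 stayed within the main interval and 24 moved outside it. With regions within 1 kb of a start in place of the promoter class, the order of the arms turned. Such regions were 49.0% and 47.8% of all regions, short arm first. Among wider regions the order of the arms in the promoter-class share turned as well.

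Values outside the interval are given for the short and then the long arm. Cluster III took 59.6% and 58.5% at tagcounts at or above the class median. With distance in place of the promoter class, 63.6% and 64.3% of all regions lay within 5 kb of a start. The promoter-class share was 57.3% and 56.4% among wider regions. Median ratios were 1.70 and 1.60 at promoters and 2.30 and 2.13 at enhancers, a split chosen after seeing the data. The share at 4 times was 48.9% and 42.5% at 2 times (53.5% over all chromosomes), 1.72% and 0.894% at 8 times (4.53%), and 18.8% and 13.4% in the enhancer class. Runs held 24.2% and 31.5% at 5 kb and 43.4% and 56.3% at 20 kb. The densest windows held 53.1% at 2 Mb and 45.0% at 10 Mb. Against chromosomes other than 12, the difference in the share at 4 times, chromosome 1 minus others, was -12.0 percentage points instead of -9.60. For these the cause was not tested, apart from the thresholds' own construction.

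No paired analysis was possible because each condition is 1 library. Unknown depth leaves ratios unscaled, tagcounts near 10 make single ratios imprecise, and multi-copy loci are uncertain.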
